A study of Rattus norvegicus with 14 samples.

Results

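The genes described here are 9 that astrocytes of the brain are known by: the channels Aqp4 and Gja1, the glutamate transporters Slc1a2 and Slc1a3, the glutamine-making enzyme Glul, the filament protein Gfap, the calcium-binding protein S100b, and the secreted proteins Apoe and Cst3. All probe sets whose platform annotation names 1 of these genes alone were taken, 19 in all for the 9 genes, of 10411 genes that the array names. Of the 19 probe sets, 18 passed the filter on dim probe sets (a mean log2 level of at least 3.88) and were tested, and 1 of Gja1 did not. RNA came from the hippocampal subfield CA3 of 14 male Long-Evans rats, 3 to 4 months old, 7 in a learning group and 7 in a control group, with 1 Affymetrix RAE230A array per rat. All 14 had been trained before in a standard water maze. Each swam, 2 to 3 weeks on, a single session of 8 trials in an unfamiliar maze, then a 90 s probe trial 1 h later, and tissue was taken right after that. The learning rats had orienting cues and a visible platform in 1 fixed place. The control rats had a visible platform that changed place and no informative cues, so cues, platform and encoding cannot be told apart. CA3 was cut out as tissue, so each array measures neurons, glia and vessels together. A change in the number of astrocytes and a change in RNA per astrocyte, in either direction, cannot be told apart.

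Astrocytes take up the glutamate and potassium that neurons release, pass ions and small molecules to each other through gap junctions, and wrap blood vessels with endfeet rich in water channels. In the hippocampus their fine processes surround synapses. Glutamate taken up by Slc1a2 and Slc1a3 is turned into glutamine by Glul and handed back to neurons.

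Values are log2 levels made with GCRMA, and a difference of 1 is a doubling. A probe set is a group of short oligonucleotides that reads 1 stretch of a transcript. Its brightness depends on the oligonucleotides, so levels are compared only between arrays at the same probe set, and "brightest" names the probe set of a gene with the highest mean. Correlations between arrays ran from 0.983 to 0.995 over the 9520 tested probe sets. Control replicate 5 stood apart: its hexokinase 3'/5' signal ratio, a sign of degraded RNA or short amplification, was 2.57 on the log2 scale, against 1.25 to 1.41 in learning arrays and 1.03 to 1.61 in the other control arrays. This array (0.9882) and learning replicates 6 (0.9907) and 4 (0.9909) had the lowest mean correlations with the others, and control replicate 3 was at 0.9916. These are the 3 arrays that are said below to have stood apart. They were taken as the 3 lowest, with no threshold, and the 2 learning arrays lay close to the rest. Scan dates and slides were not used here, and no batch was tested.

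Each of the 9 genes had a probe set above the dim filter, so the astrocyte genes were measured in CA3 tissue of both groups. In the learning rats 1 probe set each of Aqp4, Gja1 and Slc1a3 rose, by 2.14-fold, 1.67-fold and 1.33-fold. None of the 3 was the brightest of its gene. At the brightest probe sets 0 of 9 passed in limma (1 higher, that of Slc1a2, and 1 lower, that of Apoe, at an unadjusted p under 0.05). Calls here are limma results with an adjusted p under 0.05 (Benjamini-Hochberg, over all 9520 probe sets).

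Of the 18 tested probe sets, 3 were called higher (16.7%), 0 lower and 15 were not called. Over all tested probe sets 3.35% were called, 2.55% higher and 0.798% lower. Among probe sets other than the brightest of their gene the share was 9.56% of 1130, against 3 of 9 for the astrocyte genes, and among the brightest it was 2.57% of 6836, against 0 of 9. At an unadjusted p under 0.05, 6 of the 18 were higher and 1 was lower, where all tested probe sets gave 9.34% higher and 10.6% lower. In 4 of the 18 every learning array lay above every control array, which 1.73% of all tested probe sets showed, and in 0 they all lay below, which 0.368% showed. The count of 3 calls dropped to 1 without control replicate 3 or without learning replicate 3, 4, 6 or 7. It dropped to 0 without the 3 arrays that stood apart. That removal took out both the lowest and the highest array of each called probe set. The lowest was control replicate 5, and the highest was learning replicate 6 for Aqp4 and learning replicate 4 for Gja1 and Slc1a3.

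**Figure D1:**
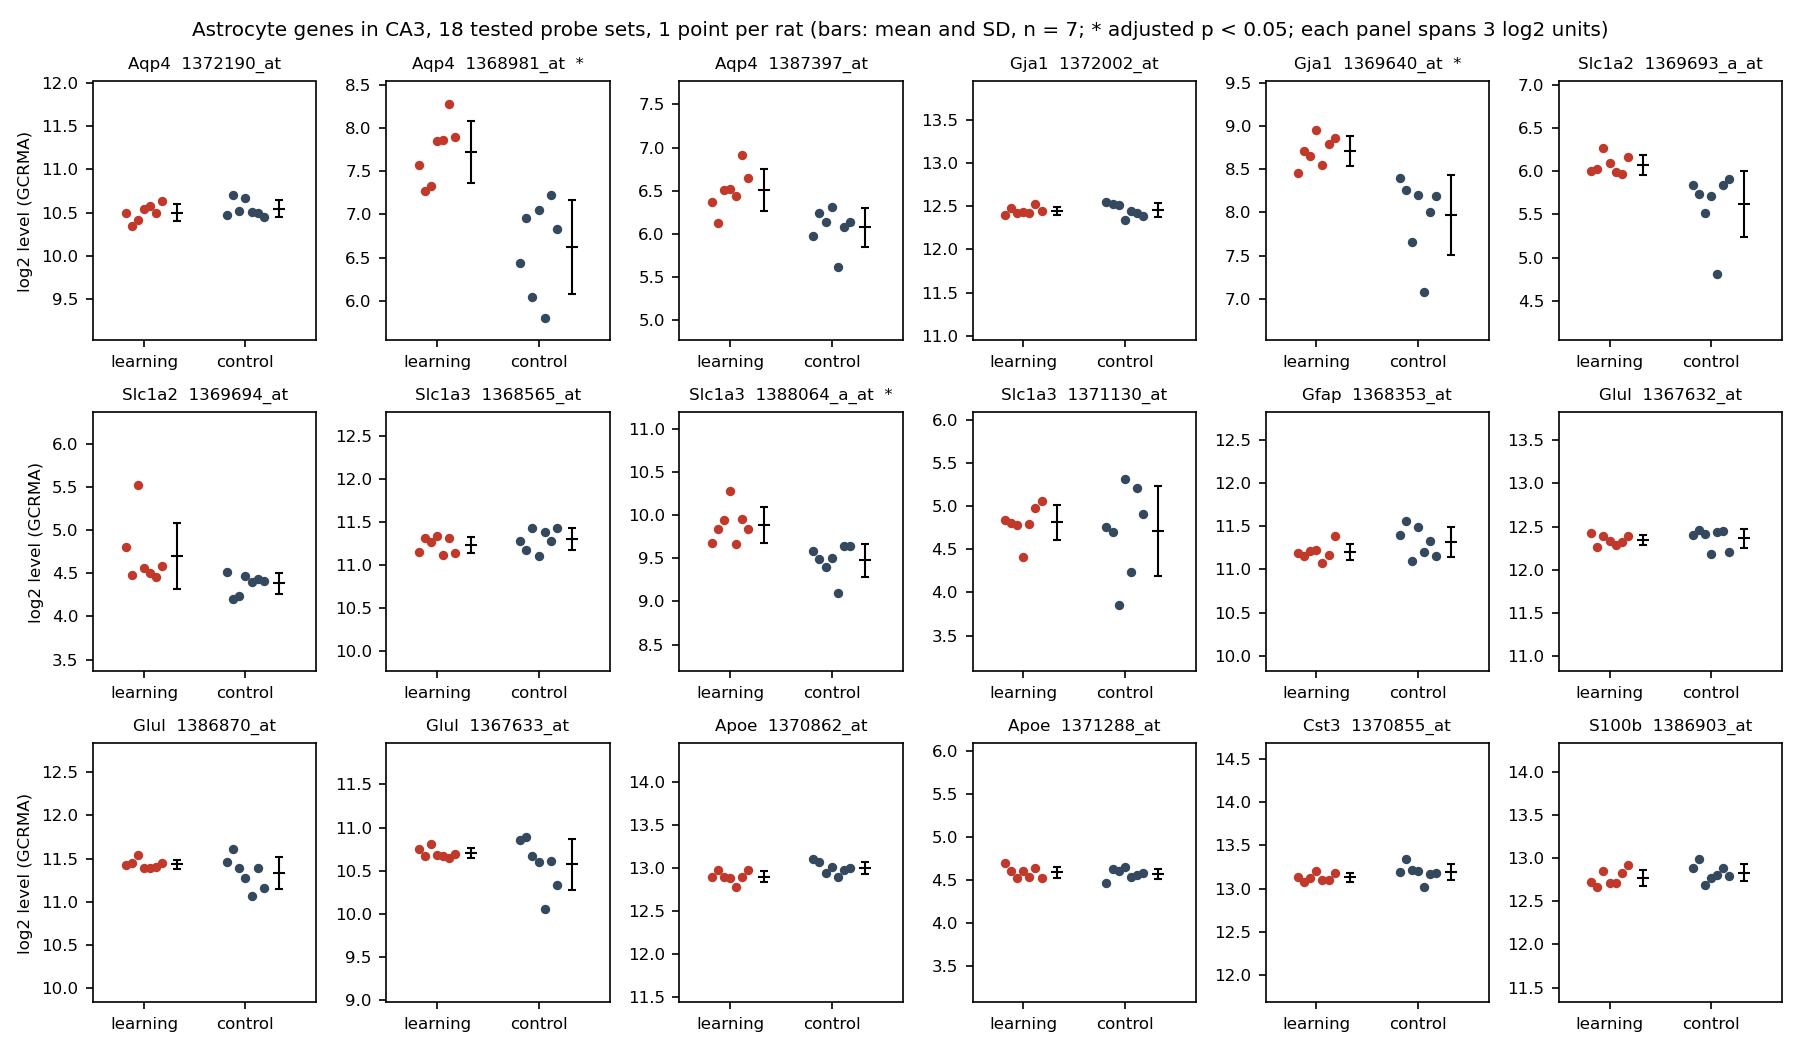
Log2 level of each of the 18 tested probe sets (vertical axis, GCRMA) in 7 learning and 7 control rats, 1 point per rat, with mean and SD beside the points; each panel spans the same number of log2 units. The points separate fully at Aqp4 1368981_at, Gja1 1369640_at, Slc1a2 1369693_a_at and Slc1a3 1388064_a_at, and lie level at the brightest probe sets of Aqp4, Gja1 and Slc1a3.

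Aqp4 is the water channel of astrocytes, placed densely in the endfeet around vessels. Its probe set 1368981_at had a lowest, median and highest log2 level of 7.27, 7.85 and 8.28 in learning rats, against 5.80, 6.83 and 7.23 in control rats. All 7 learning arrays were higher than any control array, by a narrow margin (7.27 against 7.23). The means were 7.72 ± 0.36 and 6.62 ± 0.54 (SD, n = 7 each), a log2 fold change of 1.10 (SE 0.221, 95% interval 0.63 to 1.57, limma adjusted p = 0.0163). A further probe set, 1387397_at, had 6.13, 6.51 and 6.91 in learning rats, against 5.62, 6.14 and 6.31 in control rats. There 6 of 7 learning arrays were above every control array, and the log2 fold change of 0.43 (SE 0.115) did not pass (adjusted p = 0.0548). It passed in 2 of 25 alternatives. These were trended and robust variances (adjusted p = 0.0467) and the removal of learning replicate 2 (0.49, adjusted p = 0.0274). The brightest probe set of Aqp4, 1372190_at, had 10.34, 10.50 and 10.64 in learning rats, against 10.45, 10.51 and 10.70 in control rats. The groups overlapped there, though 2 learning arrays lay below every control array and 2 control arrays above every learning array, with a log2 fold change of -0.05 and a 95% interval of -0.16 to 0.07 (adjusted p = 0.684). The call at 1368981_at held with any 1 array left out, control replicate 5 included (0.96, adjusted p = 0.0196). It was lost without the 3 arrays that stood apart (0.83, adjusted p = 0.0831) and once the Gapdh ratio entered as a covariate (1.02, adjusted p = 0.112), and its adjusted p lay between 0.00984 and 0.635 in 26 alternatives.

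For reference, the stretch from 250 bases before to 50 after each annotated start is given for the 3 genes with a called probe set, from RefSeq on build GRCr8, read along the gene's strand. The probe sets were not placed on these sequences. Capitals mark matches, on either strand, to 6 short motifs: TATAAA (the TATA box), CCAAT (bound by the factor NF-Y), GGGCGG (the GC box), TGACTCA (AP-1), TGACGTCA (cAMP response element) and TTGGC (core of the NF1 site). The last reads GCCAA on the other strand, so it overlaps CCAAT wherever a G precedes that motif. RefSeq gives 2 windows for Aqp4, on the minus strand at chr18:6798793-6799092 and chr18:6797877-6798176. The upstream window holds 1 CCAAT and 1 GC box, and the downstream window holds none of the 6 motifs.
Aqp4 upstream start: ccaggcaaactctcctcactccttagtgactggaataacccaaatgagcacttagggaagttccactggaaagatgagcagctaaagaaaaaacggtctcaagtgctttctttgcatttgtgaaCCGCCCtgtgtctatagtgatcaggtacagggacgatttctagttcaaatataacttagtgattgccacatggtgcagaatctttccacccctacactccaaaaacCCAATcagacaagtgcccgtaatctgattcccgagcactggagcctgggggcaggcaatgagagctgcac
Aqp4 downstream start: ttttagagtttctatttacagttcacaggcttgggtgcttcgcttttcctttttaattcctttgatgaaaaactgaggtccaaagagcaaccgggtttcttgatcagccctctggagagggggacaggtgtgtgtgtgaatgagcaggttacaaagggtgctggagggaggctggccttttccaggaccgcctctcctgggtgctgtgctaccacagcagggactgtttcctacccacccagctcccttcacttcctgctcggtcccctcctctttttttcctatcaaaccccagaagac
Of all 33469 windows of 300 bases in the RefSeq table, 37.5% hold CCAAT and 33.1% the GC box, so these matches are common. None of this bears on which start gave the signal.

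**Figure D2:**
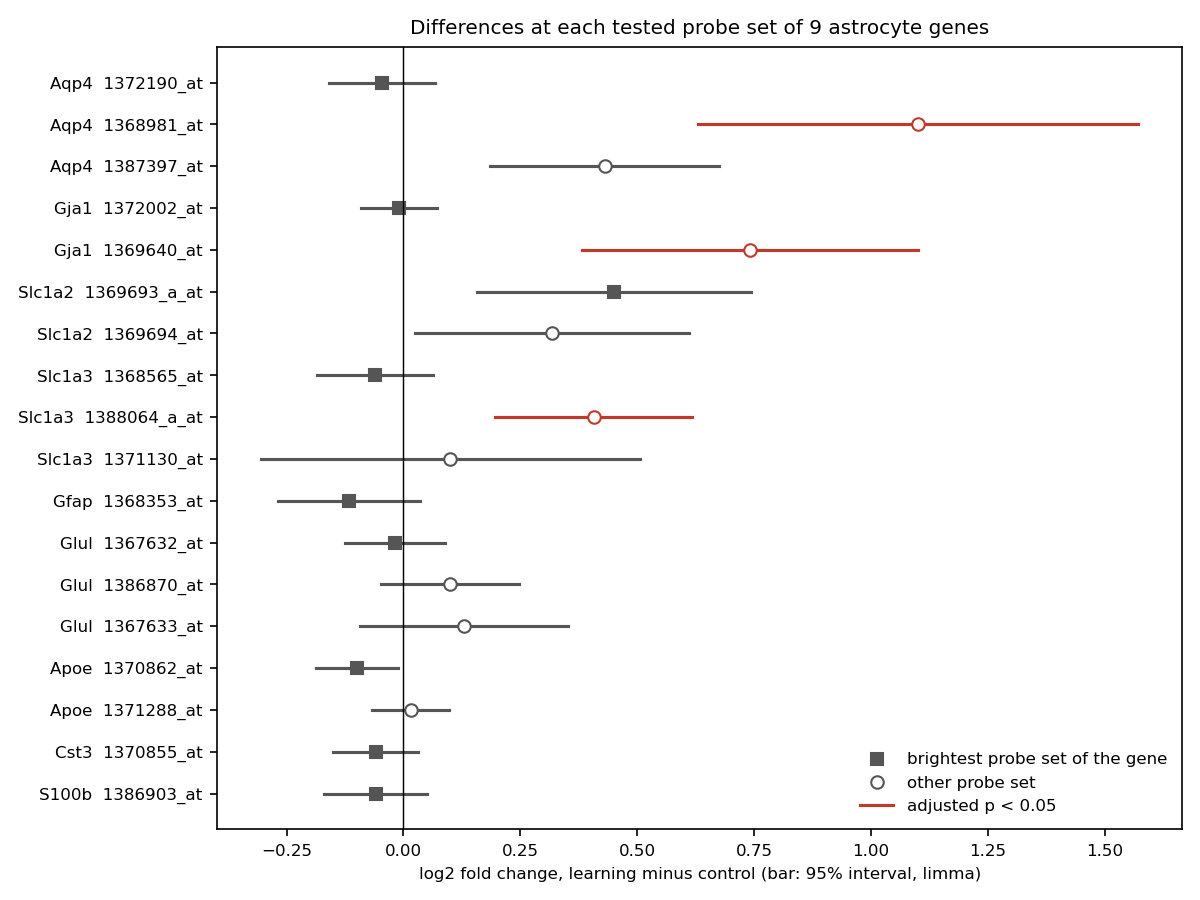
Log2 fold change, learning minus control (horizontal axis), with 95% interval from limma, for the 18 tested probe sets (rows); filled squares are the brightest probe set of a gene, open circles the others, and red marks an adjusted p under 0.05. The 3 red intervals, of Aqp4, Gja1 and Slc1a3, lie above 0, and 8 of the 9 squares lie slightly below 0.

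Gja1 encodes the main gap junction protein, or connexin, of astrocytes. Its probe set 1369640_at had 8.46, 8.71 and 8.96 in learning rats, against 7.07, 8.19 and 8.40 in control rats. The learning group lay wholly above the control group, by a narrow margin, and control replicate 5 was the lowest array. The means of 8.71 ± 0.17 and 7.97 ± 0.46 (SD, n = 7 each) gave a log2 fold change of 0.74 (SE 0.169, 95% interval 0.38 to 1.10, limma adjusted p = 0.0301). The brightest probe set, 1372002_at, had 12.39, 12.44 and 12.53 in learning rats, against 12.34, 12.45 and 12.55 in control rats. Its log2 fold change was -0.01, with an interval of -0.09 to 0.07 (adjusted p = 0.919). The third Gja1 probe set, 1369639_at, was dim, with levels of 2.13 to 2.14 in both groups, and was not tested. The call at 1369640_at held without control replicate 5 (0.59, adjusted p = 0.0114). It was lost in 11 of 26 alternatives, among them no filter on dim probe sets (adjusted p = 0.0761), the Gapdh ratio as covariate (0.53, adjusted p = 0.190), the removal of control replicate 3 or of learning replicate 3, 4, 6 or 7, and the removal of the 3 arrays (0.53, adjusted p = 0.0618), with adjusted p from 0.00563 to 0.868 over the 26.

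The single Gja1 window, on the plus strand at chr20:36302314-36302613, is shown because it holds the only AP-1 match among the windows of the 9 genes, a motif bound by Fos and Jun proteins, alongside 1 CCAAT.
Gja1 start: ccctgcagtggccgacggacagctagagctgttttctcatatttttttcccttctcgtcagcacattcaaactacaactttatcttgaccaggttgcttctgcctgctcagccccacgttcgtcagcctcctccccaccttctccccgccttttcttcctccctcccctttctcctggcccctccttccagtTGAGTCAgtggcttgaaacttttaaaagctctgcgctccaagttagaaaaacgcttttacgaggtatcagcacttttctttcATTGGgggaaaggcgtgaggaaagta
The AP-1 letters occur in 4.63% of all windows. A match of letters is a description and no binding was measured.

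Slc1a3, the transporter GLAST, and Slc1a2, the transporter GLT-1, clear glutamate from the synaptic cleft. At Slc1a3 probe set 1388064_a_at the learning rats had 9.66, 9.84 and 10.28, against 9.09, 9.50 and 9.65 in control rats. The groups did not overlap, though the lowest learning and the highest control array nearly met. The means were 9.89 ± 0.21 and 9.48 ± 0.19 (SD, n = 7 each), a log2 fold change of 0.41 (SE 0.0989, 95% interval 0.20 to 0.62, limma adjusted p = 0.0381). The brightest Slc1a3 probe set, 1368565_at, had 11.12, 11.27 and 11.34 in learning rats, against 11.10, 11.28 and 11.43 in control rats. Its log2 fold change was -0.06, with an interval of -0.18 to 0.06 (adjusted p = 0.605), and the groups overlapped. The dimmest, 1371130_at, ranged from 4.41 to 5.05 in learning rats and from 3.86 to 5.31 in control rats, with a log2 fold change of 0.10 (adjusted p = 0.818). The call at 1388064_a_at was the least stable of the 3. It was lost in 18 of 26 alternatives, among them leaving out control replicate 1, 2, 3, 4 or 5 or learning replicate 2, 3, 4, 6 or 7, with adjusted p from 0.0252 to 0.861.

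RefSeq lists 3 overlapping windows for Slc1a3 on the minus strand, and that at chr2:59557738-59558037 is shown for the third gene with a called probe set. It holds 1 match to the NF1 core, which 45.8% of all windows hold, and none of the other 5 motifs.
Slc1a3 start: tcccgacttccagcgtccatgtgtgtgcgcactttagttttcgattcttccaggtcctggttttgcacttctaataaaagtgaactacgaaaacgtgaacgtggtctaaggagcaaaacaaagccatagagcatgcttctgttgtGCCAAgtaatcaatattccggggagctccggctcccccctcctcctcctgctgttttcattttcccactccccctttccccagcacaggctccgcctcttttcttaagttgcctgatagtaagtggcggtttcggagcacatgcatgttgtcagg
No TATAAA was found in any of the 16 windows of the 9 genes, where 14.2% of all windows hold it, and no cAMP response element, which 1.83% hold.

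Both Slc1a2 probe sets were higher in the learning rats without passing. At 1369693_a_at, the brighter, the levels were 5.96, 6.02 and 6.27 in learning rats, against 4.81, 5.74 and 5.91 in control rats. All learning arrays were above all control arrays, by a narrow margin (5.96 against 5.91). The log2 fold change was 0.45 (SE 0.137, adjusted p = 0.0858), and control replicate 5, at 4.81, was 0.706 below the next control array. Without that array the control group was tighter and the log2 fold change of 0.31 passed (adjusted p = 0.0244). With the hexokinase ratio as covariate it passed too (0.28, adjusted p = 0.0234), and its adjusted p lay between 0.0234 and 0.796 in 26 alternatives. The dimmer probe set, 1369694_at, had 4.45, 4.56 and 5.52 in learning rats, against 4.20, 4.41 and 4.52 in control rats. Its log2 fold change of 0.32 (adjusted p = 0.214) included learning replicate 3 at 5.52, far above the next at 4.80, and was 0.18 without that array (adjusted p = 0.170).

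Glul, glutamine synthetase, did not pass at any of its 3 probe sets. Its brightest, 1367632_at, had 12.26, 12.34 and 12.43 in learning rats, against 12.19, 12.41 and 12.46 in control rats, a log2 fold change of -0.02 with an interval of -0.12 to 0.09 (adjusted p = 0.881). The log2 fold changes were 0.10 at 1386870_at (interval -0.05 to 0.25, adjusted p = 0.452) and 0.13 at 1367633_at (interval -0.09 to 0.35, adjusted p = 0.530). At both, control replicate 5 was the lowest of the 14 arrays, and the control group was wider (SD 0.185 and 0.294) than the learning group (SD 0.0529 and 0.0568). Without that array the log2 fold changes were 0.05 at 1386870_at (adjusted p = 0.693) and 0.04 at 1367633_at (adjusted p = 0.829).

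Gfap, the intermediate filament of astrocytes whose level is known to rise in injury, had 11.08, 11.19 and 11.39 in learning rats, against 11.10, 11.32 and 11.56 in control rats. The log2 fold change of -0.12 (interval -0.27 to 0.04) did not pass (adjusted p = 0.388), and 6 of 7 learning arrays lay below the control mean. S100b, a calcium-binding protein that astrocytes also release, had 12.66, 12.73 and 12.92 in learning rats, against 12.69, 12.81 and 12.99 in control rats. Its log2 fold change was -0.06 (interval -0.17 to 0.05, adjusted p = 0.569). Each of these genes has a single probe set, and a fold change outside 0.83 to 1.03 for Gfap or 0.889 to 1.04 for S100b lies outside the interval. Without control replicate 2, the highest array at both, the log2 fold changes were -0.08 for Gfap and -0.03 for S100b.

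Apoe, the main lipid carrier of the brain, had 12.77, 12.90 and 12.98 at its brightest probe set, 1370862_at, in learning rats, against 12.90, 12.997 and 13.11 in control rats. All 7 learning arrays lay below the control mean. The difference was small, a log2 fold change of -0.10 (SE 0.041, interval -0.19 to -0.01), and did not pass (adjusted p = 0.190). The other Apoe probe set, 1371288_at, had levels of 4.52 to 4.70 in learning and 4.47 to 4.65 in control rats and a log2 fold change of 0.02 (adjusted p = 0.870). Cst3, cystatin C, a secreted inhibitor of cathepsins, had 13.07, 13.12 and 13.20 in learning rats, against 13.02, 13.19 and 13.34 in control rats, a log2 fold change of -0.06 (interval -0.15 to 0.03, adjusted p = 0.464), or -0.03 without control replicate 2.

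Over the 9 genes, the brightest probe sets had a median log2 fold change of -0.06, with 8 of 9 below 0, while the brightest probe sets of all 6836 genes had a median of -0.03, with 63.9% below 0. The other 9 tested probe sets had a median of 0.32 and 9 of 9 above 0, beside a median of 0.07 over the 1130 such probe sets of all genes. The mean of the 9 brightest probe sets per array lay between 11.34 and 11.47 in learning rats and between 11.28 and 11.51 in control rats.

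Whether probe sets of 1 gene changed unequally was tested within each array, as the dimmer minus the brightest probe set, with a two-sided exact permutation test that used each of the 3432 ways to assign the 14 arrays. P-values were adjusted over the 1130 such pairs of 942 genes. For Aqp4 1368981_at this difference ran from -3.09 to -2.22 in learning rats, against -4.71 to -3.27 in control rats. The groups did not overlap, and the learning group was higher by 1.15 (exact p = 5.83e-04, the smallest these assignments allow, adjusted p = 0.00998). It was higher by 0.48 at the other Aqp4 probe set, by 0.75 for Gja1 1369640_at and by 0.47 for Slc1a3 1388064_a_at, with the same exact and adjusted p and no overlap. The 5 other pairs, those of Slc1a2 (-0.13), Slc1a3 1371130_at (0.16), Glul (0.12 and 0.15) and Apoe (0.11), did not pass (adjusted p from 0.127 to 0.698).

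Such unequal change was common on these arrays. Of all 1130 pairs 20.2% passed, and 17.3% of the 1130 did so with the difference higher in learning rats, against 4 of 9 here. In 5.31% the learning group lay wholly above, against 4 of 9 here. The median difference over all pairs was 0.09 and the 90th percentile 0.39. Pairs that pass were picked by this same difference, so a high rank among all pairs adds no support. The 4 pairs that passed were at 0.47 to 1.15. Without control replicate 5 they were 1.02, 0.41, 0.60 and 0.39 and all 4 passed (adjusted p = 0.0157 to 0.0183). Without the 3 arrays the 2 of Aqp4 were 0.89 (adjusted p = 0.0611) and 0.33, with 0.55 for Gja1 and 0.33 for Slc1a3 (adjusted p = 0.0499 for these 3).

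**Figure D3:**
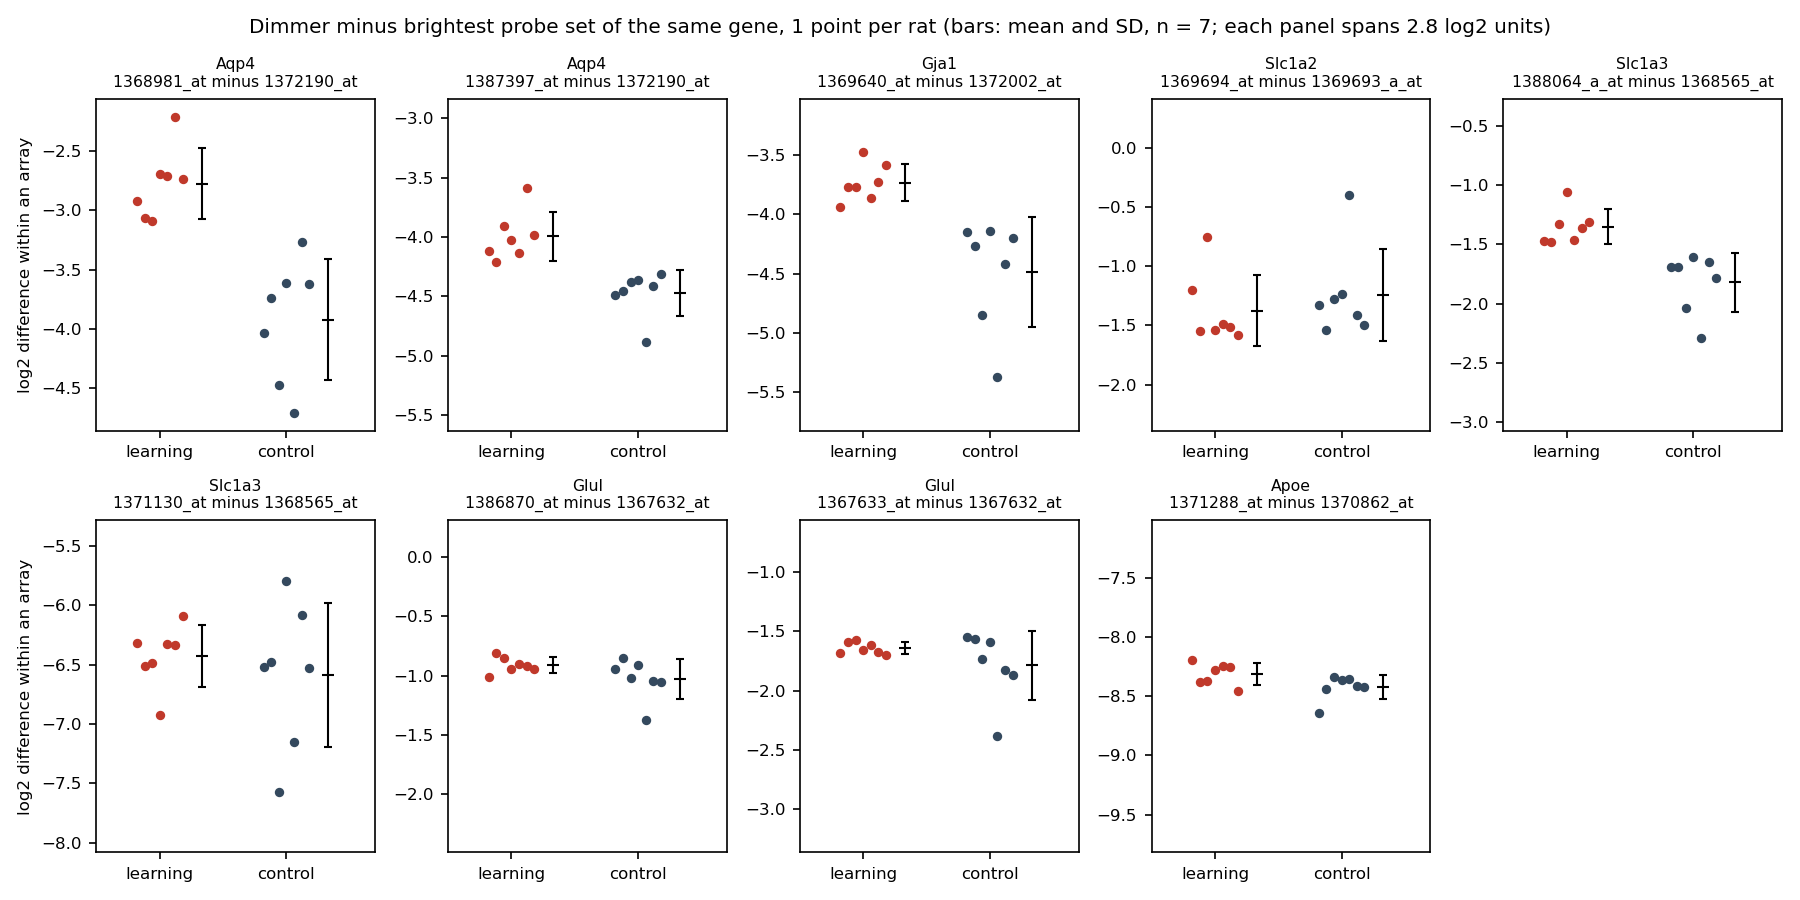
Dimmer minus brightest probe set of the same gene within each array (vertical axis, log2) for the 9 pairs of 6 genes, 1 point per rat, with mean and SD. Learning and control points separate for both Aqp4 pairs, Gja1 1369640_at and Slc1a3 1388064_a_at, and overlap for the other 5.

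A measure of the same kind over other genes differed between the groups. Over 346 genes other than these 9 with a gap of at least 2 log2 units between their tested probe sets, the dimmest minus the brightest averaged between -3.27 and -3.18 in learning arrays, against -3.62 to -3.31 in control arrays, without overlap. With this balance as covariate the log2 fold changes were 0.41 for Aqp4 1368981_at (adjusted p = 0.635), 0.09 for Gja1 1369640_at (adjusted p = 0.868) and 0.08 for Slc1a3 1388064_a_at (adjusted p = 0.861). In that fit 0 of 9520 probe sets were called. The balance was built from these same arrays and divides the groups completely, so group and balance cannot be told apart.

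Other levels also moved with the groups. Of 23 tested probe sets of 14 neuron marker genes 4 were called higher and 0 lower, beside 2.55% higher and 0.798% lower over all. At an unadjusted limma p under 0.05, 11 of the 23 were higher and 1 was lower, beside 9.34% higher and 10.6% lower over all. The 4 called probe sets belong to 2 genes. The kinase gene Camk2a had 0.76 and 0.54 at 2 of 3 probe sets (adjusted p = 0.0150 and 0.0381) and 0.04 at the third (adjusted p = 0.953). The filament gene Nefl had 0.24 and 0.18 (adjusted p = 0.0333 and 0.0395). The synaptic protein gene Snap25 had 0.12 (adjusted p = 0.0820). The mean of the 14 was 11.10 to 11.16 in learning arrays and 10.94 to 11.08 in control arrays, without overlap. Of 11 annotated choroid plexus markers 2 passed the dim filter, the thyroid hormone carrier Ttr, which fell by 2.09 on the log2 scale (adjusted p = 0.0124), and Igfbp2 (-0.70, adjusted p = 0.237), and their mean ran from 5.33 to 6.55 in learning and from 6.50 to 8.71 in control arrays. Igfbp2 is also counted among the further astrocyte markers below. Oligodendrocyte markers (9.95 to 10.32 in learning, 9.96 to 10.32 in control), microglial markers (6.48 to 6.78 in learning, 6.55 to 7.00 in control) and endothelial markers (5.95 to 6.35 in learning, 6.20 to 6.37 in control) overlapped, and 0 of their 15, 11 and 10 probe sets were called in limma. At an unadjusted limma p under 0.05, 1, 0 and 1 of them were higher and 1, 1 and 2 were lower, in that order of lists. The 2 brightest genes of each list had -0.07 for Mobp and 0.01 for Mbp, both myelin proteins, 0.0034 for Ctss and -0.09 for the receptor Csf1r, and -0.25 for the glucose transporter Slc2a1 and -0.05 for the tight junction protein Cldn5, each at its brightest probe set. Neither dentate granule marker was called: Calb1 had -0.11 (adjusted p = 0.825) and Prox1 -0.20 (adjusted p = 0.602). The Gapdh 3'/5' ratio, on the log2 scale, was 0.380 to 0.513 in learning and 0.460 to 0.638 in control arrays. The part of tissue makeup in the astrocyte results was not tested, except that with the mean of the dentate granule markers Calb1 and Prox1 as covariate the 3 called probe sets had 1.01 for Aqp4 (adjusted p = 0.0263), 0.67 for Gja1 (adjusted p = 0.0533) and 0.36 for Slc1a3 (adjusted p = 0.0581).

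Further astrocyte markers were measured by 53 tested probe sets of 44 genes, of which 44 are the brightest of their gene, unlike the 3 called ones. Of the 53, 0 were called in limma, beside 3.35% of all probe sets, while an unadjusted p under 0.05 was reached by 7 that were higher and 14 that were lower. Their median log2 fold change was -0.07, beside -0.02 over all tested probe sets. At the brightest probe sets the median of the 44 genes was -0.09, with 34 of 44 below 0. The brightest probe sets of all genes had a median of -0.03, with 63.9% below 0. The 2 brightest were Mt3, a metallothionein (-0.10, adjusted p = 0.169), and Sparcl1, a secreted matrix protein that promotes synapses (-0.03, adjusted p = 0.722). Slc4a4, a bicarbonate cotransporter of astrocytes, had 0.86 (adjusted p = 0.155) at 1 probe set and -0.14 (adjusted p = 0.166) at the other. Fgfr2, a growth factor receptor, had 0.48, 0.36 and -0.15 at 3 probe sets (adjusted p = 0.0826 to 0.112). These genes were picked after their values were seen. Per array the mean over the 44 genes was 8.46 to 8.62 in learning and 8.54 to 8.73 in control rats.

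The counts for genes that act with the 9 are read beside the 3.35% called over all probe sets, and beside 9.34% higher and 10.6% lower without adjustment. At these rates a count of 0 in a short list does not set it apart. Of 21 annotated genes listed as reactive astrocyte genes, 14 had only dim probe sets. Among 8 tested probe sets of the other 7 genes 0 were called (1 higher and 1 lower without adjustment). The filament protein Vim had -0.39 (adjusted p = 0.114) and Ptgs2, the prostaglandin-forming enzyme, had 0.04. Which cells gave these signals was not tested. In the glutamate and glutamine cycle 0 of 21 were called (6 higher and 2 lower unadjusted), with 0.07 for Got2, a mitochondrial aminotransferase, and 0.14 and 0.42 at the 2 probe sets of Slc17a7, the vesicular glutamate transporter of neurons. Among proteins of the endfoot membrane and its basal lamina 0 of 9 were called (1 higher unadjusted), with -0.07 for Mlc1, a membrane protein of astrocytes. Dag1, the dystroglycan that links endfeet to the basal lamina, had -0.04 at the brightest of 3 probe sets and 0.30 and 0.14 at the others. No other aquaporin passed the dim filter, so none was tested. Of the gap junction genes 3 were tested and 0 called (1 lower unadjusted), with -0.20 for Gjb6, the other main connexin of astrocytes (adjusted p = 0.246), and 0.05 for Tjp1, a scaffold that binds the Gja1 protein.

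Partners of the secreted proteins gave 1 call. Among 26 tested probe sets of 16 genes for apolipoproteins and their receptors, 1 of 5 probe sets of Sorl1, a sorting receptor that binds Apoe-bearing lipoproteins, rose (0.33, adjusted p = 0.0238), and the other 4 had 0.02 to 0.29, while Clu had -0.05 and Sort1 -0.04 at the brighter and 0.20 at the dimmer of 2 probe sets. Of 11 probe sets of cystatins and cathepsins 0 were called (1 lower unadjusted), with -0.03 for Ctsb and 0.0034 for Ctss, both cathepsins. Of 5 probe sets of S100 proteins 0 were called (3 lower unadjusted), with -0.15 for S100a13 (adjusted p = 0.0710) and -0.15 for S100a1. Among 10 probe sets of intermediate filaments other than Gfap, both of Nefl (0.24 and 0.18, adjusted p = 0.0333 and 0.0395) and 1 of 2 of Ina (0.46, adjusted p = 0.0233) rose, and these are filament proteins of neurons. The Nefl calls are the same as those counted among the neuron markers. Nefm, also neuronal, had -0.05 (adjusted p = 0.691).

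**Figure D4:**
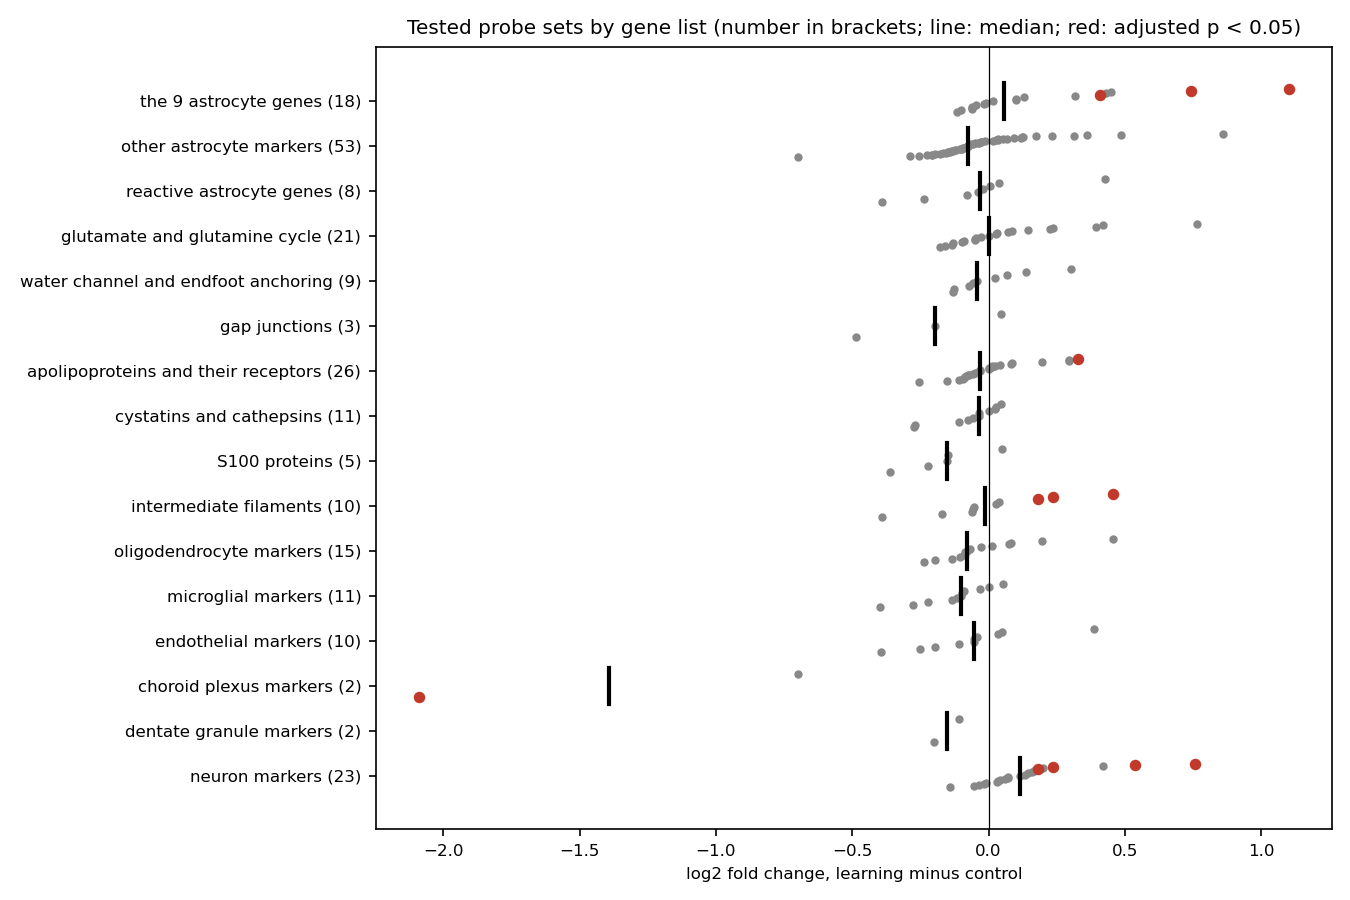
Log2 fold change, learning minus control (horizontal axis), of every tested probe set of each gene list (rows, number of probe sets in brackets); the black line is the median and red marks an adjusted p under 0.05. The 9 astrocyte genes hold 3 red points, between 0.41 and 1.10, while the other astrocyte markers hold none and have a median of -0.07.

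Across the 14 arrays, as deviations from the group means, the 3 called probe sets varied together to a moderate degree, with Pearson r of 0.77 between Gja1 and Slc1a3, 0.65 between Gja1 and Aqp4 and 0.52 between Slc1a3 and Aqp4. Control replicate 5 was the lowest of all 14 arrays at each of them, and at 8 of the 18 tested probe sets of the 9 genes. The genes most like Aqp4 1368981_at by this measure were Tmod2 (r = 0.87), Slc35a1 (0.83) and Atf2 (0.81). Those most like Gja1 1369640_at were Rasgrp1 (0.96), Pdha1 (0.94) and Dlg3 (0.93), and those most like Slc1a3 1388064_a_at were Zfp91 (0.94), Hpcal4 (0.90) and Manea (0.90). None of these is an astrocyte marker of the lists used, and the points share arrays and normalization, so the values describe likeness only.

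**Figure D5:**
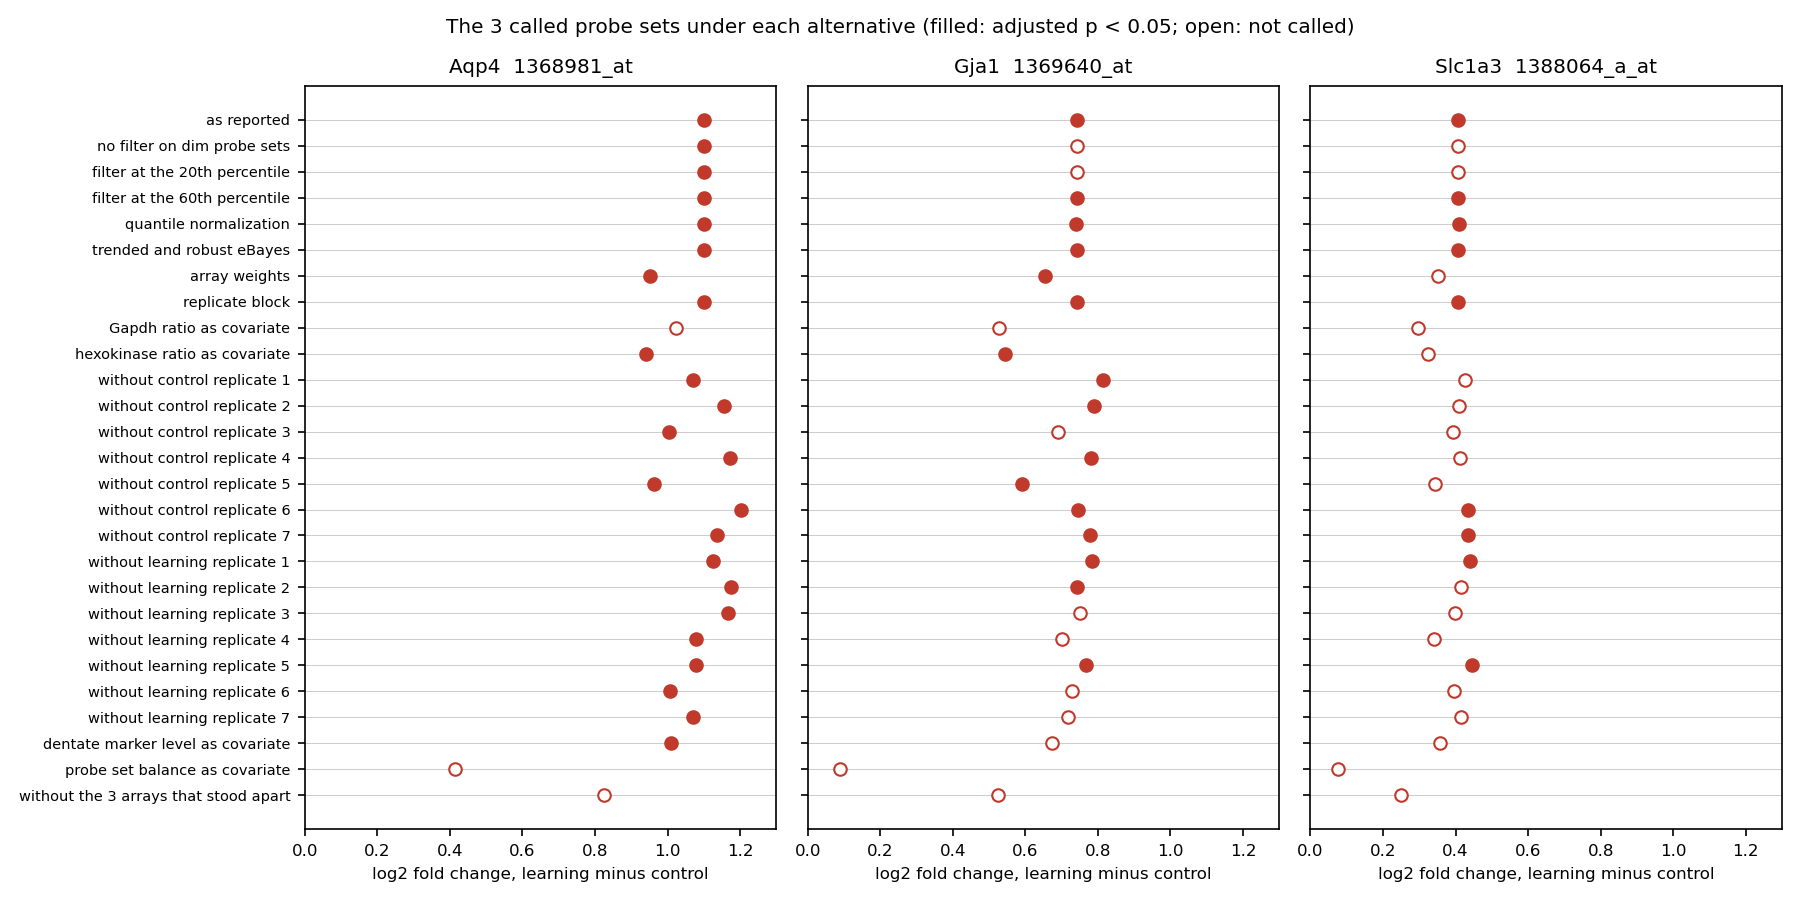
Log2 fold change, learning minus control (horizontal axis), of the 3 called probe sets as reported and under each alternative that tested them (rows); filled points passed an adjusted p under 0.05. All points lie above 0; the lowest, with the probe set balance as covariate, are 0.41, 0.09 and 0.08.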

How the data were processed

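RNA of 14 rats, 1 Affymetrix RAE230A array each, was grouped by sample title. The labels call the samples biological replicates. The deposited values are log2 levels for 15923 probe sets that the authors made with GCRMA, per the submitters' processing notes. Its version and settings are unknown here. The scale was taken as log2 because of a range of -0.09 to 14.24 and array medians of 5.07 to 5.09. GCRMA models background by probe sequence, so differences of dim probe sets are uncertain. Arrays have no read depth, and their number limits the precision.

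Genes were taken from GEO's platform annotation, with symbols updated by Entrez ID to RefSeq GRCr8 (12754 of 12789 probe sets with 1 gene). The 312 with several genes were left unnamed, and 2771 were not listed. The 57 control probe sets and 6346 below the 40th percentile of mean level (3.88) were left out. For the other 9520, learning minus control was estimated in limma 3.58.1 (lmFit, eBayes; R 4.3.3), with no covariate and Benjamini-Hochberg adjustment, and were called at an adjusted p under 0.05. The fit and the permutation test were tested on simulated data. Within-gene differences were adjusted over all 1130 pairs, not the 9 pairs of these genes alone as first planned.

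The genes, lists and tests were chosen with earlier results of these data known. All probe sets of the 9 genes are named, and from each list the called genes and the 2 brightest. Slc4a4 and Fgfr2, outside that rule, were added after their values were seen. Some genes belong to several lists. Alternatives were other dim filters, quantile normalization, trended and robust variances, array weights, the replicate number as a block, 3'/5' ratios as covariate and each array left out. Added after the data were seen were the dentate level, the probe set balance, the removal of 3 arrays and 1 probe set per gene. No coordinates of probe sets are given.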

Additional observations from a re-analysis of the deposited data

Results flagged for a closer look

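Of 36 groups of 7 arrays checked over the 18 tested probe sets, 3 held an array whose gap to its nearest neighbour exceeded Dixon's critical share of the group's range (95% level), where chance gives about 1 in 20. Slc1a2 1369693_a_at was 4.81 in control replicate 5, with the next control array at 5.51. Slc1a2 1369694_at was 5.52 in learning replicate 3, with the next learning array at 4.80. Slc1a3 1371130_at was 4.41 in learning replicate 4, with the next at 4.78.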

How the results depend on the processing

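The 3 called probe sets kept their direction in all 26 alternatives that tested them. The number of called probe sets among the 18 was 1 without a dim filter, 1 with a filter at the 20th percentile, 1 with the dentate marker level as covariate, 0 with the Gapdh ratio, 0 with the probe set balance, 0 without the 3 arrays and 0 with 1 brightest probe set per gene, where the 3 are not tested, and it ranged from 1 to 3 with each array left out. Over all probe sets 319 were called, and the count was 158 without a dim filter, 39 with the Gapdh ratio, 177 with the hexokinase ratio, 163 with the dentate level, 0 with the balance, 105 without the 3 arrays, 132 with 1 probe set per gene, and 163 to 352 with each array left out. Of the other astrocyte markers 0 were called, 1 with the hexokinase ratio (Fgfr2) and 0 to 2 with each array left out (Fgfr2, Id3 or Slc25a18).

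The sample titles do not say whether rats with the same replicate number were matched. Deviations of same-numbered arrays correlated from -0.16 to 0.13, and 1 of 7 learning arrays correlated best with its own number. Such weak correlations do not show that the rats were unmatched. With the replicate block in limma the same 3 probe sets were called and 313 over all. For within-gene differences 3 genes passed as reported and in the other alternatives, but 0 with the replicate block, where 128 sign changes allow no p below 0.0156 and the lowest adjusted p was 0.0837.

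Signs turned only at probe sets that were not called. With the probe set balance as covariate these were Slc1a2 1369693_a_at (-0.0922), Slc1a3 1371130_at (-0.34), and Glul 1367632_at (0.0509), 1367633_at (-0.13) and 1386870_at (-0.0330). Slc1a3 1371130_at was -0.0242 with the hexokinase ratio and ranged from -0.0419 to 0.201 with each array left out. Glul 1367632_at was 0.0196 with the Gapdh ratio and 5.8e-04 without the 3 arrays, and Apoe 1371288_at was -0.0044 without them. With each array left out Gja1 1372002_at ranged from -0.0285 to 0.0066 and Apoe 1371288_at from -0.0030 to 0.0276. The causes were not tested.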
